A study of Mus musculus with 24 samples.

Results

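The comparison described here set hippocampal microglia of APP/PS1 mice against those of control mice at 4 months of age, the youngest of the 3 ages collected. Its members are the 4 libraries labelled tg and the 4 labelled wt at that age, 8 of the 24 libraries of the series. The remaining libraries are the same genotypes at 6 and 9 months. The tg mice carry the APPswe/PSEN1dE9 transgenes, which raise amyloid production, and the wt animals are the controls without them. All groups are male mice, and the region is the hippocampus. Cells were sorted alive at low temperature as CD11b-high, CD45-intermediate and CD49d-negative, the last of these a gate against infiltrating blood cells. The promoter of the transgenes, the strain background, whether controls were littermates and whether each replicate is 1 animal are not stated in the labels. The p-values therefore measure only the spread between these samples, which may be technical.

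As background, microglia are the resident macrophages of the brain and clear debris, prune synapses and respond to protein deposits. In mice that deposit amyloid, the cells that touch plaques take on a state called disease-associated microglia (DAM), in which receptors, lipid carriers and lysosomal genes are raised and genes of the resting state are lowered. An early step of that state (stage 1) does not need the receptor Trem2, while the later one (stage 2) does, and the title of the series places its question at the early effects of amyloid on these cells.

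The 8 libraries held 9895511 to 12358124 counts over genes and 15804 to 18816 detected genes. No measure of depth or composition differed between the genotypes by an exact permutation test (lowest two-sided p = 0.0857 of 5 measures, adjusted 0.429; 4 against 4 libraries cannot give less than 0.0286). Values are given as CPM, the count standardised to an effective library size, which is the total with the TMM factor applied. In these libraries 3 counts equal 0.243 to 0.303 CPM, which is called the floor below. Levels of different genes were not divided by length and are not compared. A value with its ± is a mean with its SD (4 libraries a genotype). The term log2 FC stands for the fitted log2 fold change of tg against wt. The floor covers counting error only, and PCR reads are not independent molecules.

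The sorted cells carried the markers of microglia in every library. The purinergic receptor gene P2ry12 was at 15576 to 23197 CPM for wt against 15948 to 17823 CPM for tg. The transcription factor gene Sall1 was at 329.7 to 501 CPM for wt against 376 to 501 CPM for tg. Itga4, which encodes the CD49d antigen that the gate excluded, was at 2.22, 0.917, 0 and 0.522 CPM for wt against 1.52, 0.0973, 0 and 1.36 CPM for tg, too low to be tested. All 22 identity and sort markers were measured, and their sum was 150599 to 180514 CPM for wt against 149826 to 161240.0 CPM in tg.

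3 libraries stood apart in GC slope or in neutrophil transcripts, and many of the results that lean on them are marked where they come. Replicate 2 of tg also stood apart, on the third axis of a principal component analysis (17.8% of the variance). It was at 74.0 there, with the other libraries at -23.0 to 28.6. In wt replicate 3 genes rich in G and C had low values, with a slope of -0.41 in log2 CPM per 10 points of GC content, against 0.25 in tg replicate 3 and -0.08 to 0.08 in the other 6. The macrophage growth factor receptor gene Csf1r, which is 54.5% G and C, moved in the same order: it was at 6763, 6563, 2730.4 and 6851 CPM for wt against 5284, 6414, 11648 and 4873 CPM for tg. Replicate 3 of wt was the lowest of the 8 and replicate 3 of tg the highest, and among the remaining 6 each wt library lay above each tg library. The log2 FC of Csf1r was 0.30 with all 8 libraries and -0.29 without those libraries. Replicate 2 of wt held transcripts of neutrophil granules, described further down.

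**Figure D1:**
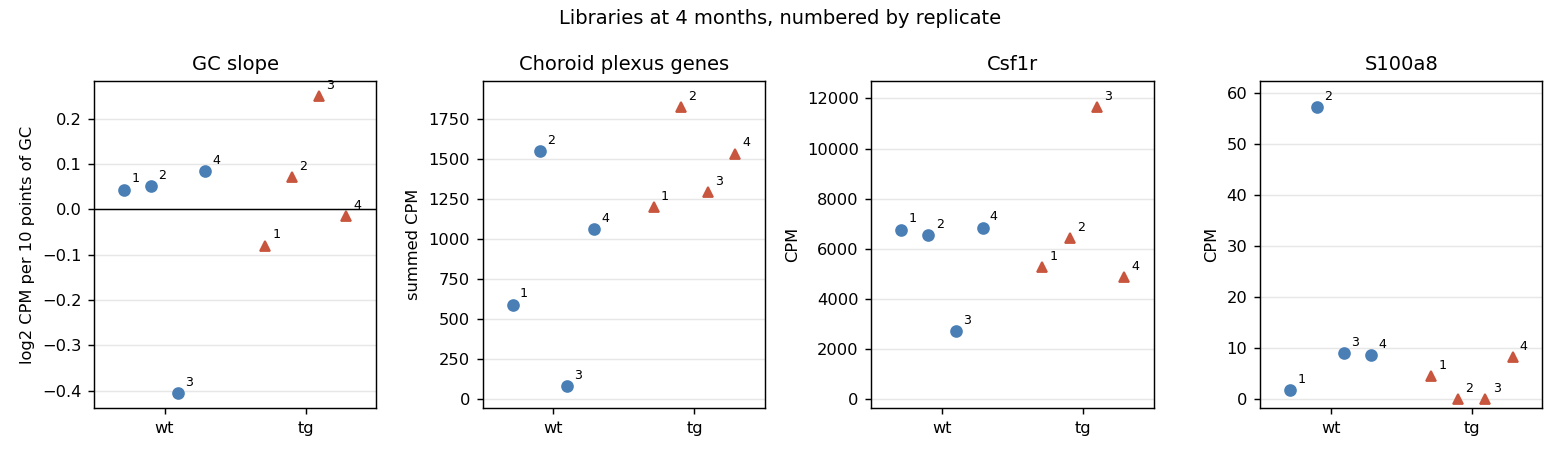
Each point is 1 of the 8 libraries, numbered by replicate, with wt as circles and tg as triangles; the vertical axes are the slope of log2 CPM on GC content, the summed CPM of the choroid plexus genes, and the CPM of Csf1r and of S100a8. Replicate 3 of wt is lowest in the first 3 panels, replicate 3 of tg is highest in GC slope and in Csf1r, and replicate 2 of wt is alone at 57.2 CPM of S100a8.

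Did the transcriptome of these cells differ between the genotypes at 4 months? No gene passed the test: edgeR's quasi-likelihood test with Benjamini-Hochberg adjustment called 0 of 12883 tested genes (0% called at adjusted p under 0.05), and the smallest adjusted p was 0.987. At an unadjusted p under 0.05 there were 492 genes (3.82%), 277 of them higher and 215 lower in tg, where 644 would be found if no gene differed. limma-voom with quality weights also called 0 (624 at unadjusted p under 0.05), while DESeq2 called 3, all higher in tg (668 at unadjusted p under 0.05). Fitted fold changes were spread evenly, with 50.5% of tested genes higher in tg and a median log2 FC of 0.003.

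The spread between libraries sets what could be seen. The biological coefficient of variation was 43.7%, and the median SE of a log2 FC was 0.61 for the 4874 genes under 10 CPM, 0.28 for the 6447 at 10 to 100 CPM and 0.16 for the 1562 above. In rank correlation, pairs of tg libraries were at 0.915 to 0.978, pairs of wt libraries at 0.912 to 0.941 and pairs across genotypes at 0.881 to 0.959, so the 3 ranges overlapped.

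The 3 genes that DESeq2 called also had the smallest p by edgeR. Taf1a (ENSMUSG00000072258), a subunit gene of the initiation factor that RNA polymerase I uses on ribosomal DNA, was at 3.54, 3.58, 3.34 and 2.78 CPM for wt against 10.6, 15.8, 9.36 and 10.8 CPM for tg. Each tg library lay above each wt library, and the wt libraries differed little among themselves. Its log2 FC was 1.81 (SE 0.33, 95% interval 1.07 to 2.54, unadjusted p = 0.000228 and adjusted p = 0.987 by edgeR, adjusted p = 0.00219 by DESeq2). The growth regulator gene Myc (ENSMUSG00000022346) was at 28.6, 33.2, 41.4 and 44.3 CPM for wt against 93.1, 57.3, 94.9 and 75.8 CPM for tg. Here too the groups did not overlap, with tg replicate 2 nearest to wt (log2 FC 1.12, SE 0.22, adjusted p = 0.987 by edgeR and 0.00660 by DESeq2). Elovl7 (ENSMUSG00000021696), which encodes an elongase of very long fatty acids, had 0, 0, 4 and 1 counts in wt and 29, 45, 48 and 30 in tg, or 0.126 ± 0.199 CPM for wt against 3.48 ± 0.854 CPM for tg. The wt mean is under the floor, so its fitted log2 FC of 4.76 (95% interval 2.49 to 7.03; DESeq2 4.90, adjusted p = 0.00958) rests on 5 wt counts in all.

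The groups did not overlap in 215 tested genes with tg on top (1.67%) and in 186 with wt on top (1.44%), counts that carry no test. After a correction of each library for GC content, a step added after the data were seen, the counts were 173 above and 251 below. The excess of higher genes thus turned round, as did the balance over all tested genes. With that correction 5870 were fitted higher and 7013 lower (median log2 FC -0.04), against 6502 higher and 6381 lower without it. Of the 12 genes with the smallest p in each direction, the 12 higher and 11 of the 12 lower ones had groups that did not overlap. These genes were picked by that p, so this is a description. In Elovl7, Hba-a1 and Gm37653 only the higher group reached 1 CPM in any library. For such genes the filter of 1 CPM in 4 libraries itself sets the groups apart, also in the counts above.

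Among the higher ones, Spp1 (ENSMUSG00000029304), which encodes the secreted matrix protein osteopontin, was at 1.65, 3.92, 2.82 and 0.957 CPM for wt against 12.8, 7.20, 8.44 and 7.21 CPM for tg. The highest wt library was below the lowest tg library, and both groups were under 13 CPM throughout (log2 FC 1.93, SE 0.49, 95% interval 0.83 to 3.02, adjusted p = 0.987 by edgeR). Dusp6, a phosphatase gene that restrains ERK signalling, had the most reads of the 24, at 402, 568, 367 and 601 CPM for wt against 842, 773, 747 and 692 CPM for tg. The wt libraries fell into a lower and a higher pair, and the tg libraries were all above both (log2 FC 0.66, SE 0.17). Nfkbid, which encodes a nuclear inhibitor of NF-kB, was at 1.15, 1.08, 2.82 and 1.57 CPM for wt against 5.37, 6.13, 5.51 and 6.82 CPM for tg, with tg replicates close to each other (log2 FC 1.85, SE 0.48). A further gene of this kind was Wdr5, a core subunit gene of histone methyltransferase complexes (18.3 ± 2.82 and 35.1 ± 6.94 CPM in wt and tg; log2 FC 0.94, SE 0.23). Rad54l2, a chromatin helicase gene, belonged here too (2.39 ± 1.75 and 13.8 ± 6.04 CPM; log2 FC 2.52, SE 0.63). The remainder were the potassium-chloride cotransporter gene Slc12a4 (7.43 ± 2.49 and 19.5 ± 6.01 CPM; 1.39), the exoribonuclease gene Dis3l (7.77 ± 2.52 and 18.5 ± 4.52 CPM; 1.25). They also held the zinc finger gene Zfp719 (31.1 ± 4.93 and 50.8 ± 5.36 CPM; 0.71) and the alpha-globin gene Hba-a1 (0.490 ± 0.263 and 3.73 ± 2.02 CPM; 2.89). In Slc12a4 the margin was thin, since tg replicate 1 was at 10.6 CPM and the highest wt library at 10.5 CPM.

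Among the lower ones, Tnpo1 (ENSMUSG00000009470), a nuclear import receptor gene, was at 71.9, 117, 112 and 86.9 CPM for wt against 51.8, 47.4, 55.6 and 64.7 CPM for tg. The ranges were 71.9 to 117 and 47.4 to 64.7 CPM and did not meet (log2 FC -0.82, SE 0.19, 95% interval -1.24 to -0.39, adjusted p = 0.987 by edgeR). Purb, which encodes a single-stranded DNA and RNA binding protein, was at 218, 193, 296 and 162 CPM for wt against 143, 95.8, 112 and 134 CPM for tg, with wt replicate 3 the highest (log2 FC -0.84, SE 0.20). Adipor2, an adiponectin receptor gene, was at 49.7, 57.9, 55.8 and 57.6 CPM for wt against 26.2, 28.5, 42.3 and 32.7 CPM for tg, and the wt libraries lay close together (log2 FC -0.77, SE 0.19). The sulfate transporter gene Slc26a2 was at 114 ± 13.1 CPM for wt against 76.1 ± 9.89 CPM for tg (log2 FC -0.58, SE 0.15). Emd, which encodes the inner nuclear membrane protein emerin, was at 54.3 ± 8.20 CPM for wt against 34.6 ± 3.73 CPM for tg (log2 FC -0.65, SE 0.18). Others of this group were the kinase gene Stk38l (44.98 ± 12.8 and 23.3 ± 2.93 CPM in wt and tg; -0.95), the chromatin remodelling helicase gene Hells (6.18 ± 2.39 and 1.48 ± 0.627 CPM; -2.05). To these add the GTPase-family gene Irgq (10.99 ± 5.84 and 3.06 ± 1.26 CPM; -1.84), Ccdc43 (32.4 ± 8.14 and 17.2 ± 2.91 CPM; -0.92) and Itpripl2 (47.1 ± 7.73 and 26.95 ± 5.99 CPM; -0.80). The list also held 2 predicted genes, Gm37653 (3.23 ± 1.60 and 0.624 ± 0.160 CPM; -2.35) and Gm45223 (57.4 ± 22.1 and 23.2 ± 9.59 CPM; -1.30), and only in Gm45223 did the groups overlap.

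**Figure D2:**
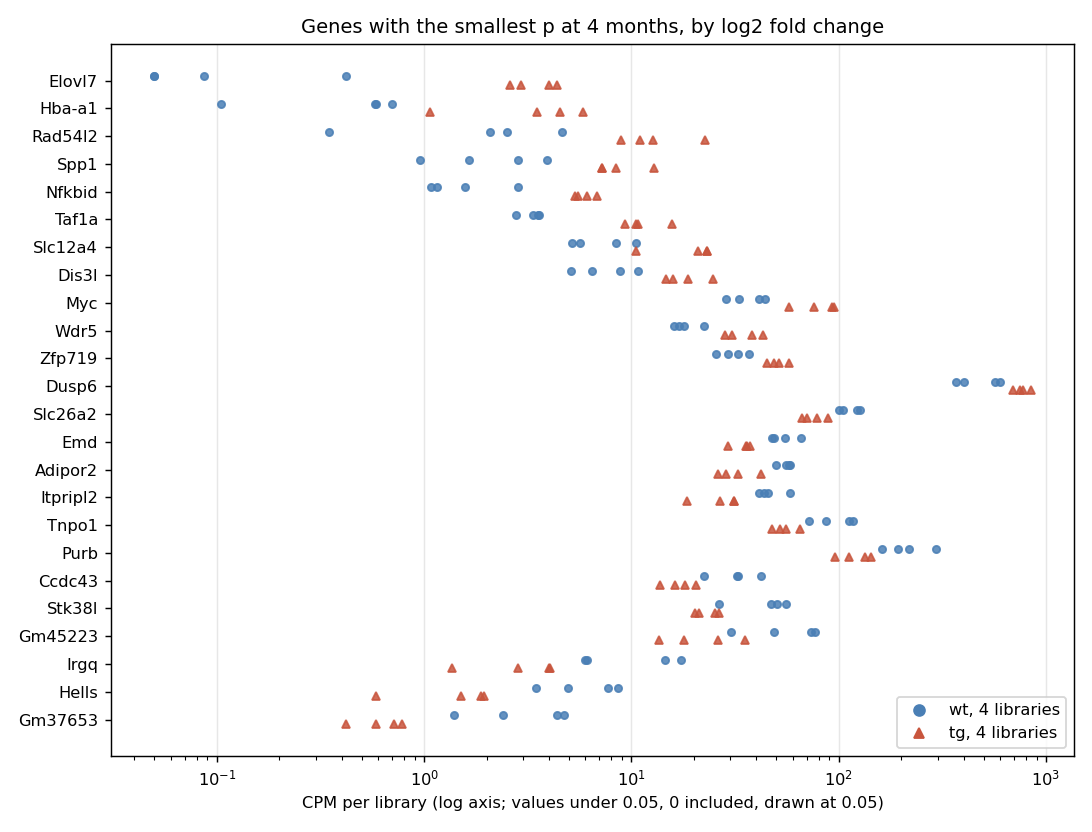
The horizontal axis is CPM on a log scale and each row is 1 gene, with 4 wt libraries as circles and 4 tg libraries as triangles; rows are ordered by log2 FC, and values under 0.05 are drawn at 0.05. The 12 upper genes have every triangle right of every circle, and the 12 lower genes the reverse except Gm45223. The choice by p favours this, as does the filter in Elovl7, Hba-a1 and Gm37653.

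Genes of the DAM state did not pass the test at this age. Of the 31 stage 2 genes, 25 reached the filter of 1 CPM in 4 libraries. In this list 0 were called, 9 had a higher and 16 a lower fitted level in tg, and their median log2 FC was -0.15, beside 0.003 over all tested genes. 1 of the 25, Spp1, had groups that did not overlap, with tg on top, against 1.67% of all tested genes. The 6 that missed the filter were Gpnmb, Fabp5, Mamdc2, Dkk2, Baiap2l2 and Lilrb4a. Mamdc2 and Dkk2 had 0 counts in all 8 libraries. All 10 stage 1 genes were tested, 4 fitted higher and 6 lower, with a median of -0.09.

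Cst7 (ENSMUSG00000068129), which encodes cystatin F, an inhibitor of lysosomal proteases, was at 11.8, 4.92, 11.2 and 12.9 CPM for wt against 11.9, 10.3, 11.8 and 14.7 CPM for tg. Replicate 2 of wt was low and the other 7 libraries lay within 10.3 to 14.7 CPM, so the groups overlapped (log2 FC 0.26, SE 0.34, 95% interval -0.50 to 1.02, adjusted p = 0.987 by edgeR). Clec7a, a phagocytic receptor gene for fungal glucans, was at 12.5, 25.00, 19.6 and 7.05 CPM for wt against 22.2, 23.9, 16.96 and 21.8 CPM for tg, and 2 wt libraries stood among or above the tg values (log2 FC 0.40, SE 0.37, 95% interval -0.41 to 1.21). Lpl, the lipoprotein lipase gene, was at 5.11, 23.2, 16.3 and 9.74 CPM for wt against 14.5, 12.2, 12.2 and 13.9 CPM for tg, with wt spread on both sides of tg. The integrin gene Itgax was at 0.824, 3.58, 0.522 and 15.1 CPM for wt against 3.94, 7.98, 4.85 and 3.90 CPM for tg. Replicate 4 of wt held most of the wt reads. The receptor kinase gene Axl was at 6.65 ± 3.26 CPM for wt against 9.08 ± 4.13 CPM for tg. The growth factor gene Igf1 was at 3.47 ± 1.58 CPM for wt against 2.71 ± 1.52 CPM for tg.

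Several stage 1 genes were abundant and had small errors. Trem2, the lipid-sensing receptor gene, was at 2004, 2112, 2144 and 1890.5 CPM for wt against 1886, 1868, 1779 and 2007 CPM for tg. The values of both groups lay within 1779 to 2144 CPM and overlapped (log2 FC -0.11, SE 0.09, 95% interval -0.31 to 0.09). Its signalling adaptor gene Tyrobp was at 776 ± 85.1 CPM for wt against 725 ± 101 CPM for tg. Apoe, the main lipid carrier gene of the brain, was at 948, 1180.3, 637 and 1135 CPM for wt against 1408, 921, 867 and 1329 CPM for tg, with tg replicates 1 and 4 highest and tg replicates 2 and 3 inside the wt range (log2 FC 0.21, SE 0.22, 95% interval -0.27 to 0.70). The ferritin heavy chain gene Fth1 was at 1139 ± 105 CPM for wt against 996 ± 59.5 CPM for tg (log2 FC -0.19, SE 0.10). The lysosomal glycoprotein gene Cd68, of stage 2, was at 2402 ± 443 CPM for wt against 2087 ± 141 CPM for tg (log2 FC -0.20, SE 0.13).

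**Figure D3:**
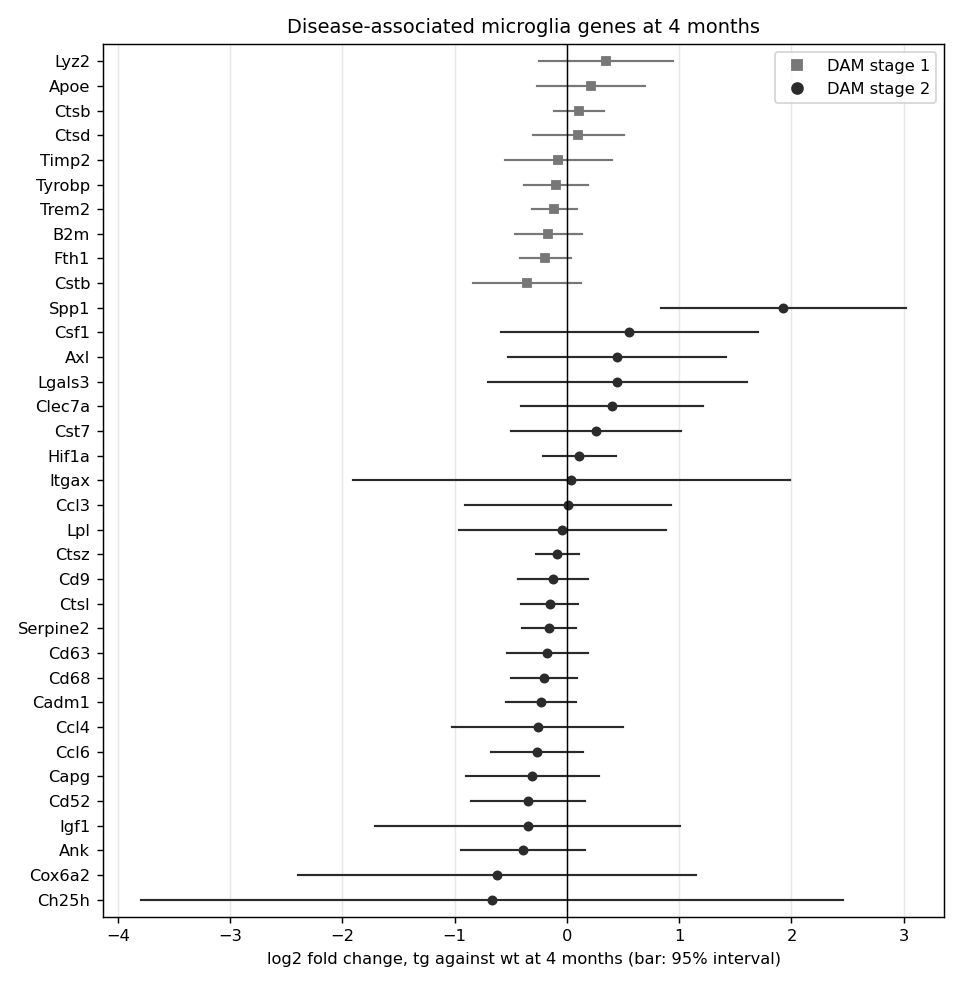
The horizontal axis is the log2 FC of tg against wt at 4 months with its 95% interval, and each row is 1 tested DAM gene, stage 1 as squares and stage 2 as circles. Every interval except that of Spp1 includes 0, and intervals are narrow for abundant genes such as Trem2 and wide for scarce ones such as Itgax.

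Among genes of the resting state, 11 of 22 identity and sort markers were fitted higher and 11 lower (median log2 FC -0.04), and 0 were called. That even split rests on tg replicate 3: without it the list had 3 higher and 19 lower (median -0.06), and without both libraries numbered 3 it had 7 higher and 15 lower (median -0.06). The CD45 gene Ptprc, part of the sort, was at 538 ± 93.7 CPM for wt against 452 ± 46.4 CPM for tg (log2 FC -0.25, SE 0.14). The CD11b gene Itgam was at 285 ± 59.6 CPM for wt against 251 ± 24.6 CPM for tg. The fractalkine receptor gene Cx3cr1 was at 10522, 10147, 6070.2 and 10743 CPM for wt against 10063, 10781, 14629 and 9446 CPM for tg. The surface marker gene Tmem119 was at 6818, 7205, 3451 and 7082 CPM for wt against 6595, 6539, 8638 and 6388 CPM for tg. In both, wt replicate 3 was lowest and tg replicate 3 highest, as in Csf1r, and their GC content was 50.3% and 59.1%. P2ry12, at 38.6% GC, was instead highest in wt replicate 3, at 23197 CPM. Whether GC content set that order was not tested. Cst3, Sparc and Aif1, named after their values were seen, are 57.2%, 52.5% and 51.4% G and C and were highest in wt replicate 3 (39943, 7038 and 899.7 CPM). The same 3 genes were lowest in tg replicate 3 (26361, 4307 and 543 CPM).

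The transgenes themselves can be followed only through the mouse genes, since the count tables list mouse symbols, and how reads of the transgenes were assigned was not tested. App was at 93.6, 129, 105 and 136 CPM for wt against 106, 143, 116 and 118 CPM for tg, with ranges that overlapped in part (log2 FC 0.06, SE 0.16, 95% interval -0.30 to 0.42). The prion protein gene Prnp was at 11.1 ± 7.03 CPM for wt against 9.78 ± 1.13 CPM for tg. Neither gene separates the groups, so they give no check of the genotype labels. Of the 24 genes of APP processing and amyloid degradation 21 were tested, 7 fitted higher and 14 lower, with 0 called and a median of -0.06. The smallest p was that of Ide, which encodes insulin-degrading enzyme, a protease that also cleaves amyloid beta, at 75.5, 129, 93.9 and 105 CPM for wt against 71.95, 62.3, 83.7 and 70.9 CPM for tg. Its ranges overlapped through wt replicate 1 and tg replicate 3 (log2 FC -0.48, SE 0.19). The gamma-secretase subunit gene Ncstn was at 575 ± 9.99 CPM for wt against 563 ± 54.4 CPM for tg, and the beta-secretase gene Bace1 at 24.8 ± 4.06 CPM for wt against 27.9 ± 8.23 CPM for tg. The alpha-secretase gene Adam10 was at 604 ± 100.1 CPM for wt against 593 ± 28.1 CPM for tg and Psen2 at 20.5 ± 7.88 CPM for wt against 23.2 ± 7.50 CPM for tg.

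Immune and degradative pathways were likewise without a called gene, and their medians lay within 0.1 of 0. The counts were 11 higher and 14 lower of 25 tested, median -0.03 for orthologues of human Alzheimer risk genes. They were 6 higher and 8 lower of 14 tested, median -0.02 for complement and Fc receptor genes and 15 higher and 16 lower of 31 tested, median -0.04 for lysosome and autophagy genes. They were 9 higher and 7 lower of 16 tested, median 0.05 for antigen presentation and 10 higher and 14 lower of 24 tested, median -0.09 for the interferon response. Left-out libraries moved several of these splits. Without tg replicate 3 the lysosome and autophagy list had 8 higher and 23 lower (median -0.11). Without tg replicate 1 the antigen presentation list had 5 higher and 11 lower (median -0.10), and without wt replicate 3 it had 5 higher and 11 lower (median -0.08). The interferon list had 12 higher and 11 lower (median 0.05) without both libraries numbered 3. The risk gene list had 13 higher and 12 lower (median 0.03) and the complement list 7 higher and 7 lower (median 0.02) without tg replicate 2. Of the risk gene orthologues, the phospholipase gene Plcg2, which acts downstream of Trem2, was at 135, 149, 90.8 and 166 CPM for wt against 141, 196, 229 and 151 CPM for tg (log2 FC 0.41, SE 0.21). Its tg values exceeded most wt values, and replicate 3 was again lowest in wt and highest in tg. Adamts1, a secreted metalloprotease gene, was at 7.17, 14.3, 1.36 and 4.61 CPM for wt against 2.68, 0.681, 1.25 and 2.34 CPM for tg, with wt replicate 2 highest (log2 FC -1.98, SE 0.72). The autophagy gene Uvrag was at 16.9, 19.4, 9.61 and 16.7 CPM for wt against 20.1, 36.7, 42.5 and 25.3 CPM for tg, without overlap between the groups (log2 FC 0.99, SE 0.31). Here too replicate 3 was lowest in wt and highest in tg. The antiviral gene Rsad2 was at 2.18 ± 0.850 CPM for wt against 0.522 ± 0.561 CPM for tg (log2 FC -2.05, SE 0.97).

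Few signalling genes had groups that did not overlap. Every tg library was on top in 1 of 16 purinergic and ion channel genes and in 1 of 21 immediate early and heat shock genes. Every wt library was on top in 2 of those 21. Over all tested genes these shares were 1.67% and 1.44%. The inflammatory and NF-kB list had 0 of 20. The genes named next were among those of smallest p in their lists, a choice that favours separation. Of the inflammatory and NF-kB genes, 13 of 20 were fitted higher (median 0.10), with 8 higher and 12 lower (median -0.12) without both libraries numbered 3. The inflammasome sensor gene Nlrp3 was at 11.1, 21.3, 7.31 and 17.7 CPM for wt against 24.3, 27.9, 25.2 and 17.1 CPM for tg, where wt replicates 2 and 4 exceeded the lowest tg library (log2 FC 0.72, SE 0.35). Of the purinergic and ion channel genes 11 of 16 were fitted higher (median 0.10), with 9 higher and 7 lower (median 0.04) without tg replicate 3. Kcnn4, which encodes a calcium-activated potassium channel, was at 1.90, 0.250, 1.46 and 1.65 CPM for wt against 5.82, 5.94, 9.69 and 2.82 CPM for tg, all tg above all wt (log2 FC 2.20, SE 0.66). Entpd1, the CD39 ectonucleotidase gene, was at 1494, 1429, 1316 and 1435 CPM for wt against 1851, 1438, 1705 and 1668 CPM for tg and overlapped only through tg replicate 2 (log2 FC 0.23, SE 0.10). Immediate early and heat shock genes split 13 to 8 (median 0.17), against 10 higher and 10 lower (median 0.001) without tg replicate 1 and a median of 0.38 without wt replicate 2. Klf6 was at 343, 306, 350.0 and 312 CPM for wt against 288, 234, 240.0 and 293 CPM for tg, every tg library below every wt library (log2 FC -0.31, SE 0.12). Btg2, an antiproliferative gene, showed the same order, with 403 to 495 CPM for wt against 345 to 394 CPM for tg (log2 FC -0.23, SE 0.11). Egr2 was at 0 to 3.13 CPM for wt against 4.09 to 8.23 CPM for tg (log2 FC 2.01, SE 1.16). Jun, a subunit gene of the AP-1 factor, was at 102, 133, 37.6 and 118 CPM for wt against 125, 155, 286 and 134 CPM for tg, with tg replicate 3 high and wt replicate 3 low (log2 FC 0.84, SE 0.38).

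Metabolic lists held the most one-sided counts among the microglial pathways, again with 0 genes called. All 7 tested genes of the 13 encoded by mitochondrial DNA were fitted lower in tg, with a median log2 FC of -0.40. Their summed level was 4505, 6999, 7219 and 4468 CPM for wt against 4252, 4046, 4932 and 4959.9 CPM in tg. Replicates 2 and 3 of wt were high, while wt replicates 1 and 4 lay within the tg range. mt-Nd1, a complex I subunit gene, was also highest in wt replicates 2 and 3, at 653, 919, 917 and 564 CPM for wt against 484, 507, 616 and 588 CPM for tg (log2 FC -0.48, SE 0.17, 95% interval -0.86 to -0.09). Only wt replicate 4 lay inside the tg range. mt-Nd6, of the same complex, was at 192 ± 66.3 CPM for wt against 129.7 ± 26.6 CPM for tg (log2 FC -0.57, SE 0.25). Without wt replicate 2 the median of the list was -0.22. The other 6 genes of the list, mt-Co2 and mt-Atp6 among them, were at 2.63 CPM or less in every library, so the list covers part of the mitochondrial genome.

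Nuclear genes of oxidative phosphorylation were fitted lower in 29 of 39 (median -0.16) and ribosomal protein genes in 31 of 43 (median -0.17), each with 0 called. Without both libraries numbered 3 the first list had 18 higher and 21 lower (median -0.05). Over the alternatives run, these medians ranged from -0.28 to -0.05 and from -0.27 to -0.13. Rps9, of the small ribosomal subunit, was at 212, 224, 215 and 207 CPM for wt against 189, 175, 153 and 206 CPM for tg, and tg replicate 4 lay just below the lowest wt library (log2 FC -0.25, SE 0.12). Glycolysis and hypoxia genes were fitted higher in 15 of 21 (median 0.17), but the list had 8 higher and 13 lower (median -0.06) without both libraries numbered 3. Pfkfb3, which makes the activator of phosphofructokinase, was at 115, 102, 57.5 and 68.8 CPM for wt against 113, 117, 223 and 100.1 CPM for tg. Replicate 3 of tg stood alone at the top and the other tg libraries were level with wt replicates 1 and 2 (log2 FC 0.69, SE 0.30). In lipid handling and sterol synthesis 14 of 24 tested genes were fitted higher and 10 lower (median 0.16, and -0.07 without tg replicate 3). The cholesterol synthesis gene Dhcr7 was at 17.6, 20.5, 20.3 and 28.5 CPM for wt against 31.9, 31.6, 55.6 and 25.7 CPM for tg (log2 FC 0.74, SE 0.28). Replicate 3 of tg was far the highest for Dhcr7. The fatty acid activating enzyme gene Acsl1 was at 53.5, 45.2, 41.3 and 47.4 CPM for wt against 57.6, 64.9, 64.7 and 53.7 CPM for tg, with wt replicate 1 and tg replicate 4 nearly touching (log2 FC 0.36, SE 0.16).

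The last pathway lists were circadian clock genes (8 higher and 7 lower of 15 tested, median 0.18) and TGF-beta signalling (6 higher and 7 lower of 13 tested, median -0.02). The others were proliferation (9 higher and 15 lower of 24 tested, median -0.30) and the unfolded protein and integrated stress response (10 higher and 10 lower of 20 tested, median -0.04). Without tg replicate 3 the TGF-beta list had 4 higher and 9 lower (median -0.26) and the stress response list 11 higher and 9 lower (median 0.05). Without wt replicate 2 the TGF-beta list had 7 higher and 6 lower (median 0.03) and the proliferation list 9 higher and 11 lower (median -0.06). The clock list had 8 higher and 6 lower (median 0.03) without wt replicate 3. The clock activator gene Arntl was at 7.33, 16.2, 11.7 and 21.9 CPM for wt against 20.8, 12.4, 65.6 and 20.5 CPM for tg, and its tg mean rests on replicate 3 (log2 FC 1.06, SE 0.52). Skil, a repressor gene of TGF-beta signalling, was at 315, 273, 431 and 193 CPM for wt against 249, 178, 164 and 216 CPM for tg, with overlap (log2 FC -0.59, SE 0.23). Its replicate 3 was highest in wt and lowest in tg. Xbp1, the stress-response transcription factor gene, was at 732, 805, 647 and 837 CPM for wt against 977, 853, 819.7 and 953 CPM for tg, where wt replicate 4 was inside the tg range (log2 FC 0.25, SE 0.12).

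Lists of other cell types had the widest medians, and the libraries held these transcripts unevenly. In bulk samples, fewer cells of a type and less RNA per cell cannot be told apart. Of 14 choroid plexus genes 12 were tested, all fitted higher in tg (median log2 FC 0.74), with 0 called and 1, the prolactin receptor gene Prlr, without overlap (1.67% of all tested genes had tg on top in this way). Their summed level was 591, 1549, 80.2 and 1063 CPM for wt against 1201, 1825, 1294 and 1535 CPM in tg. Replicate 3 of wt was far below the rest, and wt replicate 2 was above 3 tg libraries. Ttr, the transthyretin gene and the most used marker of that epithelium, was at 326, 524, 20.6 and 479 CPM for wt against 469, 831, 528 and 750.5 CPM for tg (log2 FC 0.93, SE 0.66, 95% interval -0.53 to 2.40). Without wt replicate 3 the fitted log2 FC of Ttr was 0.53 and 9 of 12 genes were higher (median 0.37), and without wt replicate 2 the median was 1.66. Enpp2, the autotaxin gene, was at 233, 904, 53.9 and 516 CPM for wt against 656, 866, 653 and 686 CPM for tg (log2 FC 0.74, SE 0.60). Prlr was at 0.989, 5.25, 0 and 6.61 CPM for wt against 7.43, 20.1, 27.1 and 10.03 CPM for tg (log2 FC 2.32, SE 0.92). Kl, the klotho gene, was at 2.31, 2.42, 0.313 and 8.79 CPM for wt against 5.46, 22.00, 15.5 and 5.45 CPM for tg (log2 FC 1.80, SE 0.80).

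Neutrophil granule genes went the other way and rest on 1 library. S100a8, a calcium-binding protein gene of neutrophils, was at 1.81, 57.2, 9.09 and 8.61 CPM for wt against 4.47, 0, 0 and 8.18 CPM for tg. Replicate 2 of wt was far above all others, and tg replicates 2 and 3 had none (log2 FC -2.60, SE 1.35). S100a9 was at 0.330, 30.7, 4.60 and 4.35 CPM for wt against 2.86, 0, 0 and 2.43 CPM for tg (log2 FC -2.91, SE 1.41). The granule gene Ngp was at 0, 73.6, 15.8 and 13.5 CPM for wt against 6.17, 0, 0 and 10.7 CPM for tg (log2 FC -2.61, SE 1.55) and shared that order. The cathelicidin gene Camp was at 0, 41.5, 3.97 and 3.39 CPM for wt against 0.268, 0, 0 and 1.17 CPM for tg (log2 FC -5.07, SE 1.67). Without wt replicate 2 the log2 FC was -1.04 for S100a8 and -1.21 for Ngp, and Camp missed the filter. Of the 16 neutrophil genes 6 were tested, 5 fitted lower in tg (median -2.61). Without wt replicate 2 the list had 1 higher and 3 lower (median -1.12). The surface marker gene Ly6g had 0 counts in all 8 libraries.

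Endothelial and blood transcripts were scarce. The tight-junction gene Cldn5 was at 0.247, 0, 1.67 and 0 CPM for wt against 1.97, 2.04, 2.84 and 2.63 CPM for tg, with wt replicate 3 alone near the tg values (log2 FC 2.32, SE 1.17). The endothelial growth factor receptor gene Kdr was at 0.824, 1.75, 1.36 and 0 CPM for wt against 10.1, 0.584, 4.26 and 3.21 CPM for tg (log2 FC 2.20, SE 1.04). In 6 of the 7 tested of 22 vascular genes the fit was higher in tg (median 1.13). Without both libraries numbered 3 the median was -0.15, but only 3 of these genes then reached the filter, 1 higher and 2 lower. Hba-a1 was at 0.577, 0.583, 0.104 and 0.696 CPM for wt against 3.49, 1.07, 4.51 and 5.84 CPM for tg. The beta-globin gene Hbb-bs, which missed the filter, was at 0.659, 0.667, 0.627 and 0.435 CPM for wt against 3.76, 0, 6.93 and 4.48 CPM for tg. Reads of the near-identical globin copies may be split between genes by the counting. Cd209a, a lectin gene of border macrophages, was at 4.45, 4.75, 6.06 and 7.31 CPM for wt against 2.15, 3.02, 2.26 and 3.51 CPM for tg, all tg below all wt (log2 FC -1.04, SE 0.42), though 6 of 11 tested genes of those cells were fitted higher (median 0.01). Without both libraries numbered 3 that list had 3 higher and 8 lower (median -0.11). Astrocyte genes were fitted lower in 7 of 8 (median -0.85), a count that rests on wt replicate 2, since without it the list had 4 higher and 4 lower (median -0.21). Aldoc was at 14.5, 37.6, 31.4 and 38.1 CPM for wt against 20.8, 14.4, 16.04 and 25.1 CPM for tg (log2 FC -0.67, SE 0.33). Gfap, the intermediate filament gene, was at 2.06, 16.3, 2.09 and 13.7 CPM for wt against 7.70, 3.02, 3.18 and 3.51 CPM for tg. The remaining lists were monocytes (3 higher and 2 lower of 5 tested, median 0.48) and lymphocytes (1 higher and 2 lower of 3 tested, median -0.21). They also held neurons (3 higher and 1 lower of 4 tested, median 0.11), oligodendrocytes and precursors (4 higher and 5 lower of 9 tested, median -0.01) and erythrocytes (1 higher and 1 lower of 2 tested, median 1.33). All of these medians but that of neurons turned with 1 left-out library, in some through a changed set of tested genes. The monocyte median was -0.50 without wt replicate 1 and -0.29, -0.24 and -0.26 without tg replicates 1, 2 and 4. In each of these 4 genes were tested, 2 higher and 2 lower. The erythrocyte median was -0.34, -0.39 and -0.29 without tg replicates 1, 2 and 4, but only 1 gene was then tested. Hba-a1 missed the filter there, and the median was that of the other gene, at -0.22 with all 8 libraries. The oligodendrocyte list had 8 higher and 1 lower (median 0.34) without wt replicate 2, and the lymphocyte median was 0.004 without tg replicate 2. The part of these transcripts in the differences above was not tested.

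**Figure D4:**
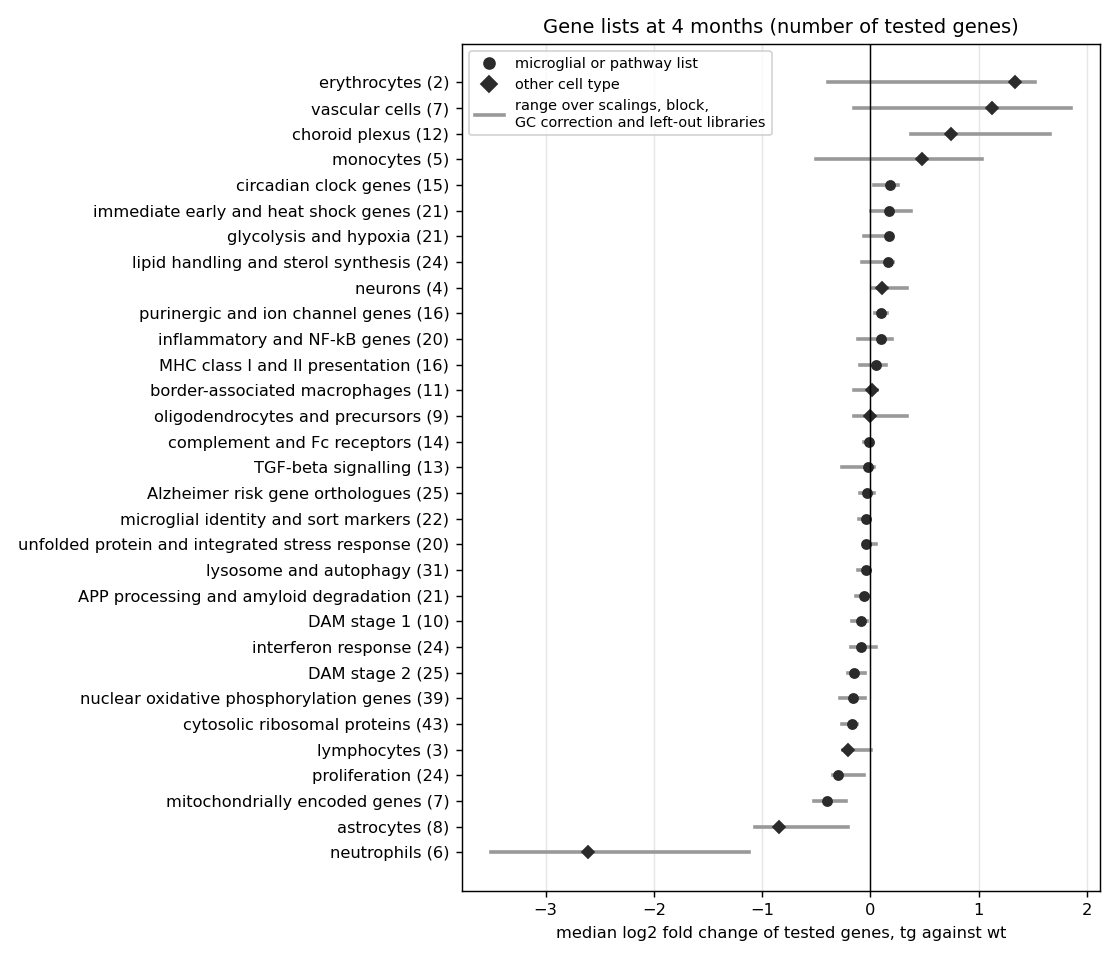
Each row is 1 gene list with the number of tested genes; the point is the median log2 FC of tg against wt, as a circle for microglial and pathway lists and a diamond for other cell types, and the grey bar is the range of that median over other scalings, the replicate block, the GC correction and left-out libraries. Medians of microglial and pathway lists lie between -0.40 and 0.18, while those of other cell types reach -2.61 and 1.33 and have long bars. The set of tested genes in a list can differ where libraries are left out.

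Were the DAM genes further apart at the later ages than at 4 months? Cst7 was. In the fit of the 16 libraries of 4 and 6 months it was at 10.5 ± 3.69 CPM for wt against 12.6 ± 1.92 CPM in tg at 4 months. At 6 months it was at 12.9 ± 0.934 CPM for wt against 168 ± 27.2 CPM in tg (4 libraries a group). The genotype difference was larger at 6 than at 4 months by 3.44 in log2 (SE 0.35, 95% interval 2.70 to 4.18, adjusted p = 0.000442 by edgeR's interaction test), and Cst7 was the 1 gene called of 14303 (0.00699%; 464 at unadjusted p under 0.05). Over 21 alternatives its adjusted p was 1.8e-18 to 0.0114. DESeq2 called 6 genes in this contrast, Cst7 among them.

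Other stage 2 genes did not pass this test. At 6 months Clec7a was at 24.7 ± 7.65 CPM for wt against 83.5 ± 18.2 CPM for tg and Igf1 at 1.15 ± 1.60 CPM for wt against 17.96 ± 6.73 CPM for tg. Axl was at 16.2 ± 17.7 CPM for wt against 22.7 ± 13.9 CPM for tg. Clec7a differed by 1.35 (SE 0.47) and Igf1 by 4.30 (SE 1.36) between 6 and 4 months, each at an adjusted p of 0.99998 by edgeR. Of 27 tested stage 2 genes 25 had a higher fitted log2 FC at 6 than at 4 months (median difference 0.38), beside 50.7% of all genes. That count is signed, so it is not a count of genes further apart. It includes genes such as Cd9 and Ctsl, which were fitted lower in tg at 4 months and less so at 6 months. The 27 include Baiap2l2 and Lilrb4a, which missed the filter at 4 months. Baiap2l2 was at 0 CPM in wt at both ages and reached the filter through tg at 6 months (2.63 to 4.13 CPM), which favours a higher log2 FC there. Its fitted difference of 2.71 has an SE of 5216 and is no usable estimate, though it is among the 25. At 9 months the same signed count was 25 of 28 (median difference 0.80), beside 50.1% of all genes. The 28 also include Gpnmb. The 9-month fit has 15 libraries and leaves out 1 failed tg library of 6325 counts. Both contrasts use the same 4-month libraries, so they are not separate evidence. That fit called 0 of 14175 genes (0%), with 591 at unadjusted p under 0.05, while DESeq2 called 16 and limma-voom 0. At 9 months Lpl was at 29.6 ± 18.9 CPM for wt against 164 ± 16.4 CPM for tg and Apoe at 2202 ± 957 CPM for wt against 5368 ± 422 CPM for tg. Cst7 was at 85.3 ± 133 CPM for wt against 429 ± 61.8 CPM for tg (4 wt and 3 tg libraries), and 1 wt library alone was at 285 CPM. Lpl differed by 2.51 (SE 0.60) and Apoe by 1.07 (SE 0.39) between 9 and 4 months, at an adjusted p of 0.999 by edgeR. Without wt replicate 1 of 9 months, the difference of Cst7 was 4.25 and was called (adjusted p = 0.00402 by edgeR), against 2.08 with it.

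Spp1 and Taf1a had other courses. The fitted log2 FC of Spp1 was 1.93 at 4 months, 1.58 (SE 0.56) at 6 and 1.86 (SE 0.66) at 9 months. The differences from 4 months were -0.35 (95% interval -1.998 to 1.30) and -0.07 (-1.92 to 1.78). Taf1a went from 1.81 at 4 months to -1.03 at 6 and -0.61 at 9 months, so the sign it had at 4 months was not kept. Those changes were -2.84 (SE 0.60, adjusted p = 0.99998 by edgeR and 0.00996 by DESeq2) and -2.42 (SE 0.60, adjusted p = 0.999 by edgeR). Taf1a was picked for its smallest p at 4 months, and both changes reuse the same 4-month libraries. That choice favours a smaller log2 FC at the later ages, so these p-values are no separate evidence. Between 4 and 6 months wt rose from 3.41 ± 0.379 to 12.2 ± 7.04 CPM, with a range of 6.56 to 22.3 CPM at 6 months. Over the same ages tg fell from 11.99 ± 2.96 to 5.95 ± 2.21 CPM.

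**Figure D5:**
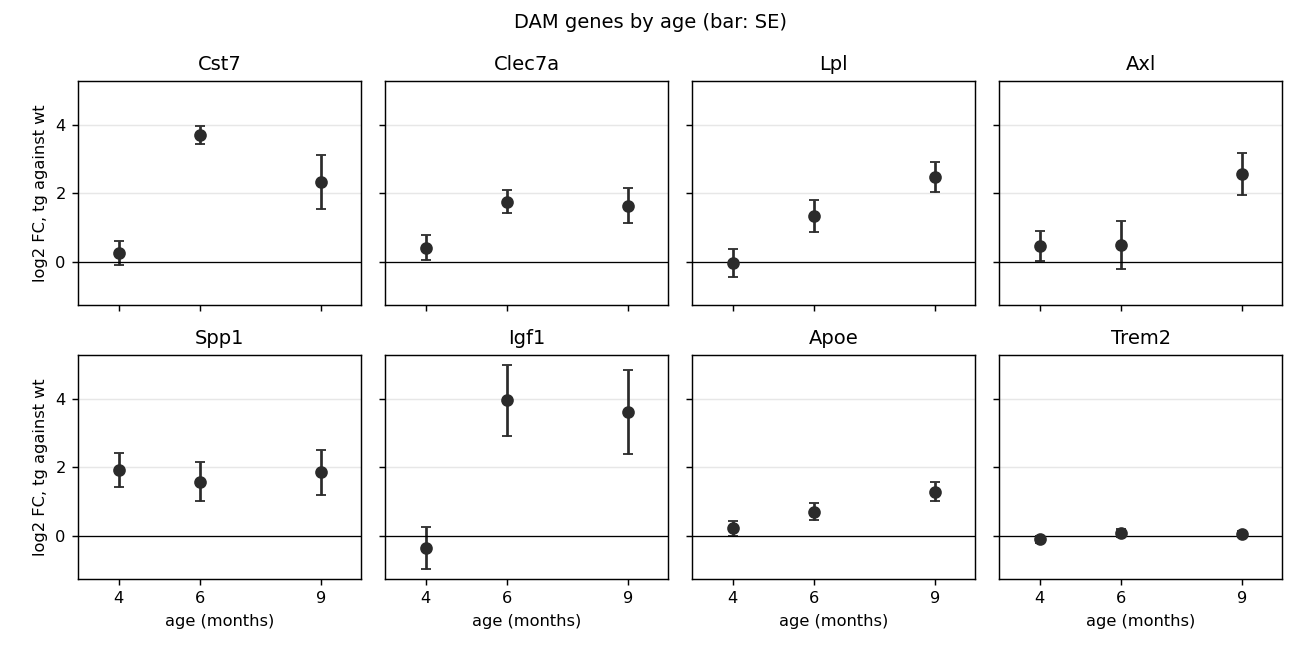
Each panel is 1 DAM gene, with age in months on the horizontal axis and the log2 FC of tg against wt with its SE on the vertical axis, from the fit of 8 libraries at 4 months and the fits with the later ages. Cst7 goes from 0.26 at 4 months to 3.70 at 6 months, Spp1 stays between 1.58 and 1.93, and Trem2 stays near 0.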

How the data were processed

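Microglial RNA from sorted hippocampal cells was sequenced after a low-input library protocol, per the labels' protocols. The authors deposited raw counts per gene symbol for 24 libraries, and FastQC 0.11.9, cutadapt 2.10, TopHat, SAMtools 1.10, Picard 2.13.2, HTSeq 0.11.0 and the mouse build GRCm39 are named per the submitters' processing notes. The strand setting, the annotation and the handling of reads that match several places are not stated in the labels or headers, so antisense, overlapping and near-identical genes are uncertain. The 36982 symbols of the series table held the same counts as the files per library, and 0 columns were without a sample.

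From these counts, genes with a CPM of 1 or more in at least 4 libraries were fitted on the 8 libraries of 4 months with edgeR 4.0.16 (TMM factors, robust quasi-likelihood test, Benjamini-Hochberg adjustment, called at adjusted p under 0.05) in R 4.3.3. DESeq2 1.42.0 and limma 3.58.1 (voom with quality weights) were alternatives. Age differences are interaction terms fitted with the libraries of 6 or 9 months, and replicate 4 of tg at 9 months was left out for depth. GC content came from transcripts of another mouse build, matched by symbol for 12868 of 12883 genes. The tests were tried on simulated data first. Other filters, scalings, tests, sample sets, left-out libraries and a replicate block were also run.

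The members and gene lists were chosen with earlier results of these data known. Named are the 12 genes of smallest p in each direction (group mean of 1 CPM or more), up to 4 tested genes of smallest p in each list, all DAM genes for the age differences, and a set of preset markers. Values of some of these genes are not reported here.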

Additional observations from a re-analysis of the deposited data

Results flagged for a closer look

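Among 188 groups of 4 libraries examined, 15 held 1 library far from the other 3, by a gap above Dixon's 95% critical share of the range of the group. Chance would flag about 1 in 20 groups of independent, normally distributed values. These groups share the same libraries and some hold CPM near 0, so the count of 15 cannot be read against that rate. Replicate 2 of wt was high in neutrophil genes: Camp was at 41.5 (0 to 3.97 in the others), S100a9 at 30.7 (0.330 to 4.60 in the others) and S100a8 at 57.2 (1.81 to 9.09 in the others), all in CPM. Replicate 3 of wt was low in Csf1r at 2730.4 (6563 to 6851 in the others), in Tmem119 at 3451 (6818 to 7205 in the others) and in Cx3cr1 at 6070.2 (10147 to 10743 in the others) CPM. The same library was high in Cldn5 at 1.67 (0 to 0.247 in the others) CPM, and its slope on GC content was -0.41 in log2 CPM per 10 points (0.04 to 0.08 in the other wt libraries). Replicate 1 of wt was high in Axl at 11.5 (4.87 to 5.12 in the others) CPM.

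Replicate 3 of tg was high in Pfkfb3 at 223 (100.1 to 117 in the others), in Arntl at 65.6 (12.4 to 20.8 in the others) and in Tmem119 at 8638 (6388 to 6595 in the others) CPM. Replicate 1 of tg was low in Slc12a4 at 10.6 (21.04 to 23.1 in the others) and high in Gfap at 7.70 (3.02 to 3.51 in the others) CPM, and replicate 2 of tg was high in Enpp2 at 866 (653 to 686 in the others) CPM. The genotype difference of Cst7 was larger at 6 than at 4 months by 3.44 in log2, by the interaction test of edgeR.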

How the results depend on the processing

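The count of 0 called genes at 4 months held under every alternative run except DESeq2, which called 3. These alternatives were other filters and scalings, limma-voom, fits with all ages, the files by gene identifier, a stricter threshold, the GC correction and each library left out. Fits of all ages gave 403 and 379 genes at unadjusted p under 0.05, from 23 and 24 libraries. With the replicate number as a block the count was 0 called (264 at unadjusted p under 0.05). Same-numbered libraries did not deviate in the same direction (correlations -0.06, -0.03, -0.21 and -0.10). Whether they share more than a number is not stated in the labels and was not tested. The block left 1 gene called, Cst7, in the difference between 6 and 4 months.

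DESeq2 called 6 genes in the difference between 6 and 4 months, 3 in each direction. Between 9 and 4 months it called 16, 7 with a higher and 9 with a lower log2 FC at 9 months. Leaving out 1 library gave 0 to 2 called genes between 9 and 4 months: Cst7 without wt replicate 1 of 9 months, and Camkk1 and Tcaim without tg replicate 2 of 9 months. The number of genes whose groups do not overlap was 401 with all libraries and 628 to 1077 with 1 left out, where fewer libraries make separation easier.

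Of the single genes followed, sign changed for Ngp under limma-voom (0.12) and for Csf1r under limma-voom (-0.039), without both libraries numbered 3 (-0.29) and over left-out libraries (-0.053 to 0.44). It also changed over left-out libraries for App (-0.032 to 0.15) and for the age difference of Spp1 at 6 months (-0.73 to 0.041) and 9 months (-0.47 to 0.20), the last also under limma-voom (1.03). The cause was not tested. In all, 15 of these values reversed, 6 were called where the main value was not, and 1588 kept direction and call. Depth limits genes near the floor, such as Elovl7, Camp and Cldn5.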
